A study of Homo sapiens with 4 samples.

Results

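The snoRNA host lncRNA genes were taken as every gene whose symbol is SNHG followed by a number, together with GAS5, ZFAS1 and EPB41L4A-AS1. This gave 32 genes, of 55134 annotated genes that are not small RNA genes. All 32 were found in the RefSeq gene table and 31 in GENCODE 44, since SNHG33 has that name only in RefSeq. Binding was mapped in MDA-MB-231, an established triple-negative human breast cancer cell line, after ultraviolet cross-linking of the cells at 254 nm and 400 mJ per cm2. The 2 HNRNPC samples were labelled as irCLIP, although the name of the deposited list gives HITS-CLIP, and the 2 PABPC4 samples as PAPERCLIP. In both methods the protein is pulled down with the RNA bonded to it and the RNA is sequenced as tags. PAPERCLIP starts its reverse transcription at poly(A) and so places tags at polyadenylated 3′ ends. Both proteins had 1 peak list made from pooled replicates, so the values carry no replicate spread and no comparison between samples could be tested. No list from uncross-linked cells or from a control antibody was analysed here. A peak was given to a host gene when the list named that gene or when the peak centre lay in the gene on its strand, and each position was counted once. The lists held 32 HNRNPC peaks of 9107, and 52 PABPC4 peaks of 63507, in host genes. Peak height is the number of tags at the summit. It rises with RNA abundance as well as with binding, and these could not be told apart. The expected markers of the line had tall PABPC4 peaks at their 3′ ends, with VIM at 10197, EGFR at 600 and CD44 at 331 tags. Among the markers expected to be low, ERBB2 stood at 70 and CDH1 at 56 tags, ESR1 had no peak at a 3′ end, and PGR had 0 peaks. The median of all PABPC4 peaks at annotated 3′ ends was 52 tags, so ERBB2 and CDH1 were not low by that measure.

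Small nucleolar RNAs (snoRNAs) guide the chemical modification of ribosomal RNA and other small RNAs. Box C/D snoRNAs (SNORD genes) direct 2′-O-methylation and box H/ACA snoRNAs (SNORA genes) direct pseudouridylation, while scaRNAs act on spliceosomal RNAs in Cajal bodies. Most human snoRNAs lie inside introns and are trimmed from the excised intron, so their level depends on transcription and splicing of a host gene. Many host genes code for proteins. The SNHG genes, GAS5 and ZFAS1 do not, and their spliced, capped and polyadenylated exons are often short-lived. HNRNPC is a nuclear protein that coats nascent transcripts and prefers runs of U. PABPC4 is a poly(A)-binding protein that moves between cytoplasm and nucleus.

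The host genes held 153 annotated snoRNAs and scaRNAs, of which 69 lay outside SNHG14, the long imprinted locus that carries the SNORD116 clusters. The strand of 14 of them, including all 11 in GAS5, was taken from the host gene, because only the RefSeq table listed them and it gives no strand. The sequences below are from GRCh38 and are written 5′ to 3′ as RNA. The 4 host-gene HNRNPC peaks that overlapped a snoRNA are shown first, because they are the nearest to a snoRNA, and capitals mark the bases that belong to the snoRNA. Peak boundaries do not show where within a peak the protein was cross-linked. The SNHG8 peak was chr4:118279200-118279273 on the plus strand and lay wholly inside SNORA24. The SNHG29 peak was chr17:16439979-16440135 on the plus strand and held all of SNORD49A. The SNHG3 peak was chr1:28507347-28507592 on the plus strand and held all 206 nt of SNORA73A. The GAS5 peak was chr1:173867658-173867943 on the minus strand and held all 72 nt of SNORD74.
SNHG8 peak on SNORA24: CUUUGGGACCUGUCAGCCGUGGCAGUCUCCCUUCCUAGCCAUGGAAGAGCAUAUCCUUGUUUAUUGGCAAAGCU
SNHG29 peak on SNORD49A: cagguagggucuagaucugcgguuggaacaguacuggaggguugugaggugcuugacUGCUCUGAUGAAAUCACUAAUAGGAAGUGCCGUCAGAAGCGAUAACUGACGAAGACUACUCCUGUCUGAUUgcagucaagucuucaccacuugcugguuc
SNHG3 peak on SNORA73A: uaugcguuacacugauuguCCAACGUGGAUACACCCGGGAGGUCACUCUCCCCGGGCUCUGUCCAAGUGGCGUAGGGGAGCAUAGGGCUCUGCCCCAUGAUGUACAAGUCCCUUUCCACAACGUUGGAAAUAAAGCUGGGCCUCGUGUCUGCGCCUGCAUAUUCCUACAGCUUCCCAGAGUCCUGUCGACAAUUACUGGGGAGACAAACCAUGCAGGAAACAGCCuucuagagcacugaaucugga
GAS5 peak on SNORD74: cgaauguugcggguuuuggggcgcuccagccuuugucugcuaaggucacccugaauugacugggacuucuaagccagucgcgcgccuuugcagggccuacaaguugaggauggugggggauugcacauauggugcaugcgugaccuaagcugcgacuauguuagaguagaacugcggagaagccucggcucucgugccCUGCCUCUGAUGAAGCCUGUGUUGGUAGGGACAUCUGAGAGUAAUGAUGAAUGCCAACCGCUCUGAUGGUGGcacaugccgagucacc

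The 2 tallest PABPC4 peaks on a snoRNA in host genes are shown in the same way, because they are peaks of a poly(A) method inside an RNA encoded by a canonical intron. The SNHG5 peak was chr6:85677320-85677367 on the minus strand, and the SNHG1 peak was chr11:62855295-62855365 on the minus strand. All of their bases belong to SNORD50A and SNORD26. The SNORD50A peak began 1 nt after the first base of the snoRNA and finished in a genomic run of 10 A.
SNHG5 peak on SNORD50A: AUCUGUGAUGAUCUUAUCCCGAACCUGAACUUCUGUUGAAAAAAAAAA
SNHG1 peak on SNORD26: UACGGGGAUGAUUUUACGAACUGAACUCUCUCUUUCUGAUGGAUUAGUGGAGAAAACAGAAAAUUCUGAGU

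Next come 8 PABPC4 peaks at an annotated 3′ end of a host transcript, from 8 of the 10 genes with the tallest peaks. Each sequence holds the last 40 nt of the peak and the 20 nt after it, and capitals mark the poly(A) signal nearest to the peak end. In all 8 the signal was AAUAAA. For SNHG5 the peak of 571 tags is shown, in place of its taller peak on SNORD50A, which had no signal. Among all 30 host-gene peaks at annotated ends, 9 had no signal and 2 had AUUAAA, so the 8 do not stand for all of them.
SNHG29: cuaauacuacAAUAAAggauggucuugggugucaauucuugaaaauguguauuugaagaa
SNHG25: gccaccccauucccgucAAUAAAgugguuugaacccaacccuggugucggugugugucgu
SNHG5: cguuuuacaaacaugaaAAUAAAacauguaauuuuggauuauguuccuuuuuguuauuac
ZFAS1: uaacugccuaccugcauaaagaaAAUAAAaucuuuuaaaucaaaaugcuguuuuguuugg
SNHG8: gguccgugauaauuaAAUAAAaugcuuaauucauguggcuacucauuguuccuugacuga
SNHG16: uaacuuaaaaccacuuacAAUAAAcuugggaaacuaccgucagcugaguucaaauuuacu
SNHG3: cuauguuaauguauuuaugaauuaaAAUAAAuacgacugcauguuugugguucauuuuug
SNHG1: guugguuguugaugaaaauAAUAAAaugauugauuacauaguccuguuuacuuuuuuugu
The windows were chr17:16441984-16442043 for SNHG29, chr17:64146272-64146331 for SNHG25, chr20:49289216-49289275 for ZFAS1, chr4:118279783-118279842 for SNHG8, chr17:76565307-76565366 for SNHG16 and chr1:28509594-28509653 for SNHG3, all on the plus strand. Those on the minus strand were chr6:85677060-85677119 for SNHG5 and chr11:62851968-62852027 for SNHG1.

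PABPC4 peaks were found in 25 of the 32 host genes (78.1%, 95% Wilson interval 61.2 to 89.0%, counting error only), and HNRNPC peaks in 11 (34.4%, 20.4 to 51.7%). Every host gene with an HNRNPC peak also had a PABPC4 peak, 14 had PABPC4 peaks alone, and 7 had neither. How often genes outside the host set with an HNRNPC peak also had a PABPC4 peak was not computed, so this overlap has no comparison. Among other lncRNA genes, 7.69% of 18835 had a PABPC4 peak and 1.5% an HNRNPC peak. Among 467 protein-coding genes with a snoRNA in an intron, the shares were 86.3% (82.9 to 89.1%) and 43.7% (39.3 to 48.2%). The lncRNA hosts therefore stood near the protein-coding hosts and far above other lncRNA genes in both lists. Over all 20046 protein-coding genes, 61.6% had a PABPC4 peak and 20.1% an HNRNPC peak. Both shares are close to the lower ends of the intervals of the lncRNA hosts, so these levels are not particular to snoRNA hosts. In genes with a peak, the median tallest PABPC4 peak was 107 tags in lncRNA hosts, 112 in protein-coding hosts and 41 in other lncRNA genes. The same medians for HNRNPC were 19, 12 and 10 tags. These sets differ in RNA abundance, which was not measured here.

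The 7 host genes without a peak were SNHG11, SNHG14, SNHG18, SNHG21, SNHG27, SNHG28 and SNHG32. SNHG14 holds 84 of the 153 snoRNAs, so most of the snoRNAs lay in a gene with no peak in either list. The absence of peaks at SNHG32, the host of SNORD48 and SNORD52, is not particular to that gene. Neither list held any peak, on either strand, between positions 28442029 and 33572553 of chromosome 6, a stretch of 5.13 Mb that includes the major histocompatibility complex. Whether tags from that stretch were lost in alignment was not tested.

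**Figure D1:**
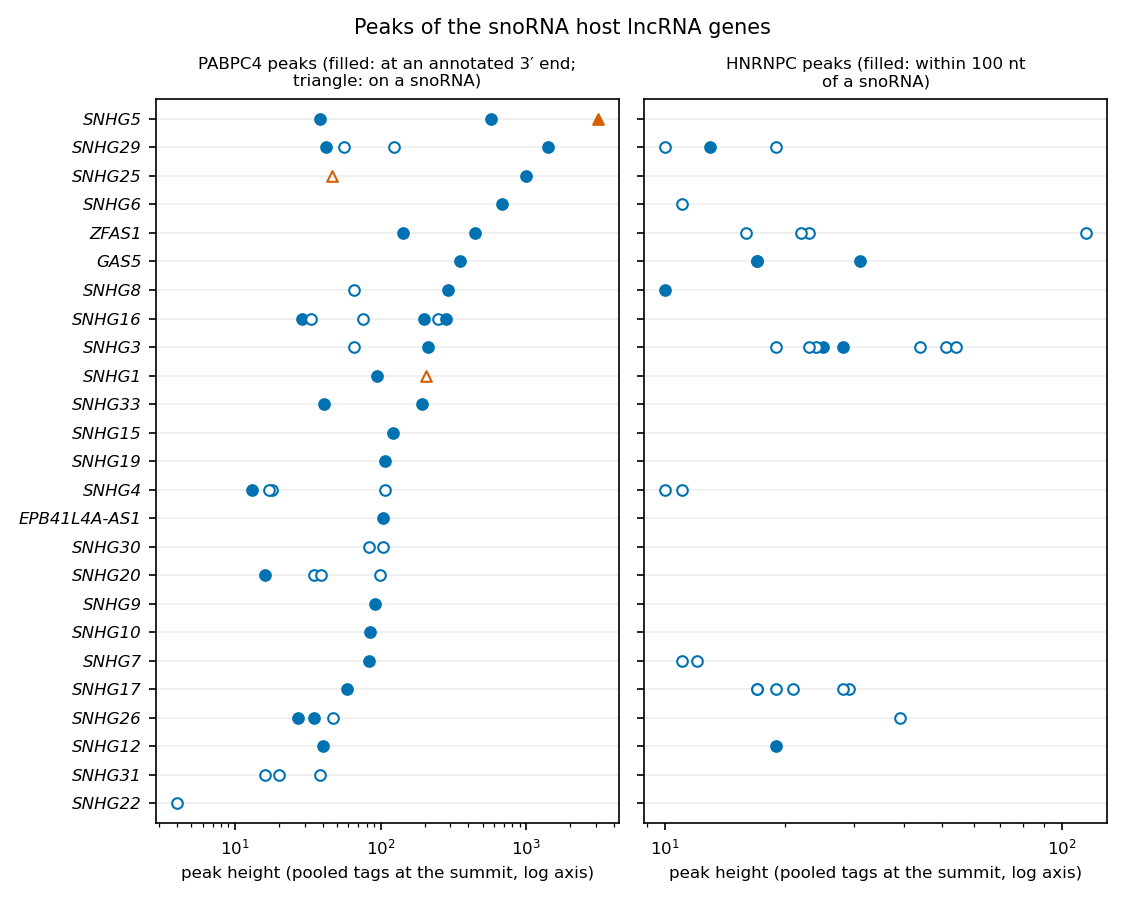
Height of every peak (pooled tags, log axis) in the 25 host genes with a peak, PABPC4 on the left and HNRNPC on the right, ordered by the tallest PABPC4 peak. Each symbol is 1 peak. Filled PABPC4 symbols lie within 50 nt of an annotated 3′ end, triangles overlap a snoRNA, and filled HNRNPC symbols lie within 100 nt of a snoRNA. PABPC4 peaks run from 4 tags in SNHG22 to 3096 in SNHG5, and HNRNPC peaks from 10 to 115 tags.

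PABPC4 peaks of the host genes lay often at the 3′ end of an annotated transcript. Of the 52 peaks, 30 were within 50 nt of such an end (57.7%, 44.2 to 70.1%), in 22 genes, against 19.9% over the whole list. Protein-coding hosts had 15.5% (14.4 to 16.8%) of 3402 peaks there and other lncRNA genes 15.3% (14.2 to 16.4%) of 4071. By height, 86.5% of the tags in host-gene peaks were at an annotated end, compared with 38.4% over the whole list, 41.9% in protein-coding hosts and 26.8% in other lncRNA genes. The tallest peak was at an annotated end in 18 of the 25 genes, a count that was not made for the other sets.

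These shares depend on how many ends are annotated. GENCODE lists between 2 and 142 transcripts per host gene, with a median of 14. When only the end of the canonical transcript and the end of the RefSeq gene were used, 17 host-gene peaks remained (32.7%, 21.5 to 46.2%), in 17 genes, against 10.7% of the whole list, 6.85% in protein-coding hosts and 8.82% in other lncRNA genes. The tallest peak was at such an end in 12 of the 25 genes. The share by height fell to 27.5%, as the tallest peaks of SNHG5, SNHG29 and SNHG6 lay at other ends. This share was not computed for the whole list or the other gene sets. The contrast by height above is therefore known only for the ends of all annotated transcripts. Against the RefSeq gene end alone, 13 genes had a peak whose 3′ edge was within 5 nt of it. Such counts by gene were not made for the other sets.

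A poly(A) signal, AAUAAA or AUUAAA on the transcribed strand, was found in the last 40 nt of 22 of the 52 peaks (42.3%, 29.9 to 55.8%), against 19.4% of the whole list. At annotated ends it was found in 21 of 30 peaks (70.0%, 52.1 to 83.3%), as AAUAAA in 19 and as AUUAAA in 2. Over the whole list, 59.3% of peaks at annotated ends had one. The signal began 14 to 29 nt before the peak end, with a median of 20 nt. Elsewhere in the host genes 1 of 22 peaks had a signal (4.55%, 0.807 to 21.8%), against 9.47% of such peaks over the whole list. That peak, in SNHG16, also held a run of 12 A.

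An A-rich stretch was scored where the 50 nt that follow a peak held a run of 6 A or any 10 nt with at least 7 A, because oligo(dT) can also prime on A encoded in the genome. Such a stretch followed 17 of 52 host-gene peaks (32.7%, 21.5 to 46.2%), against 58.5% of the whole list, 62.5% in protein-coding hosts and 62.4% in other lncRNA genes. It followed 7 of the 30 peaks at annotated ends and 10 of the 22 elsewhere (23.3% and 45.5%). Over the whole list it followed 30.4% of peaks at annotated ends and 65.5% elsewhere. The peaks at ends were also taller, with a median of 105.5 tags against 51.5, and 52 against 36 over the whole list. How much of either class came from priming inside the transcript was not tested.

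**Figure D2:**
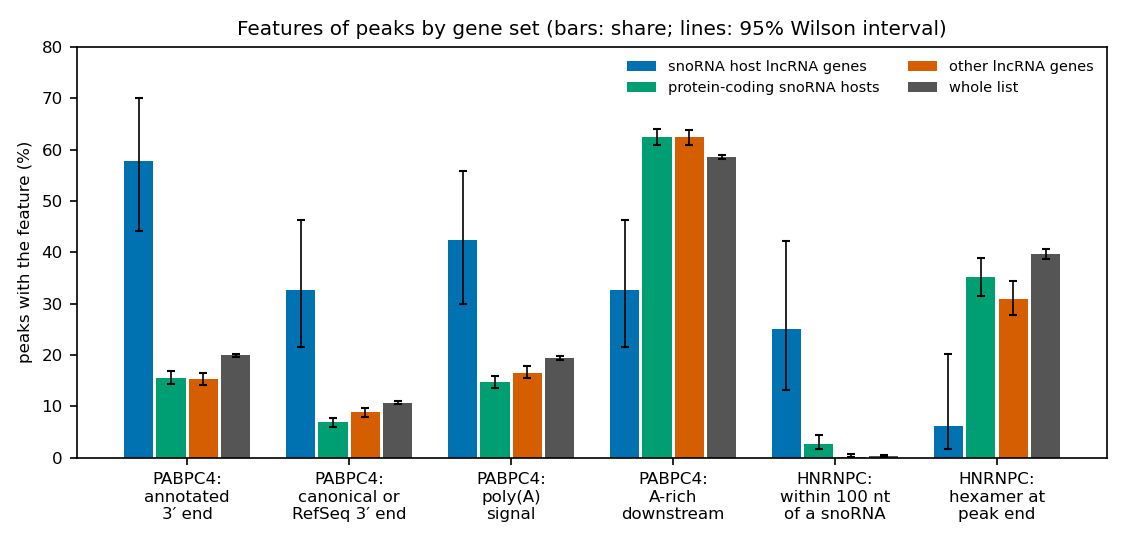
Share of peaks (%) with each feature in snoRNA host lncRNA genes, protein-coding snoRNA hosts, other lncRNA genes and the whole list. Bars are shares and lines are 95% Wilson intervals, which cover counting error only. The first 4 groups are PABPC4 peaks (52 in the host genes) and the last 2 are HNRNPC peaks (32 in the host genes), where the hexamer is GUGUCA. Host genes stand at 57.7% for annotated ends, against 19.9% of the whole list, and at 25% for HNRNPC peaks within 100 nt of a snoRNA.

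SNHG5, which hosts SNORD50A and SNORD50B, had the tallest PABPC4 peak of all host genes, at 3096 tags, or 27.1% of the height summed over them. It is the SNORD50A peak printed above. It covered 48 of the 75 nt of the snoRNA and lay 1 nt from the 3′ end of an annotated SNHG5 transcript, by which it was counted as an end peak, although it had no poly(A) signal. The A-rich score, which starts after the peak, missed the run of 10 A that the peak contains. Another SNHG5 peak of 571 tags, at chr6:85677080-85677182, had AAUAAA beginning 22 nt before its end and lay 73 nt short of the RefSeq gene end. The last, of 38 tags, lay at the RefSeq end with AUUAAA. All 3 peaks also lay in ENSG00000271793, another annotated gene on the strand, so their tags cannot be assigned to 1 gene. Without SNHG5 (a choice made after seeing the data) the height share at annotated ends in the other genes was 79.98%. Leaving out all 15 PABPC4 peaks inside another gene on the strand cut the summed height from 11411 to 6852 tags and put 83.0% of it at annotated ends.

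SNHG29 followed with 1401 tags at chr17:16441798-16442023, 500 nt downstream of SNORD65. This peak ended 5 nt past the end of an annotated transcript and had AAUAAA 29 nt before its edge, and an A-rich stretch followed it. The gene is annotated to continue, and the RefSeq end lay 28625 nt further downstream. SNHG29 also had PABPC4 peaks of 123, 56 and 42 tags. SNHG25, a short gene with 2 exons in its canonical transcript, had 991 tags at chr17:64146230-64146311, with the signal 22 nt before the end and the RefSeq end passed by 2 nt. Its other peak, of 46 tags, lay on SNORA50C and had an authors' p-value of 0.0314.

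SNHG6, the host of SNORD87, had a single PABPC4 peak of 677 tags, with AAUAAA 22 nt before its end, 2 nt short of an annotated transcript end and 246 nt short of the RefSeq end. ZFAS1, the host of the SNORD12 family, had 445 tags at chr20:49289062-49289255, 5 nt short of the RefSeq end and with the signal at 16 nt. A smaller ZFAS1 peak of 143 tags lay 34 nt before another annotated end, had no signal and was followed by an A-rich stretch.

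GAS5, which carries 11 snoRNAs in its introns, had a single PABPC4 peak, of 349 tags, at an annotated 3′ end. It had AAUAAA 18 nt before its edge, and an A-rich stretch followed it. SNHG8 had 289 tags at its end, 1 nt from the RefSeq end, with the signal at 24 nt, and 66 tags at a peak 3 nt wide.

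SNHG16, the host of SNORD1A, SNORD1B and SNORD1C, had the most PABPC4 peaks of the host genes, with 6. Their heights were 280, 246, 197, 75, 33 and 29 tags. The tallest, at chr17:76565296-76565346, lay 2 nt from the RefSeq end with AAUAAA 21 nt before its edge. The peak of 197 tags ended 58 nt before the RefSeq end and had no signal, and the peak of 246 tags was 651 nt from the nearest annotated SNHG16 end. In SNHG3, the tallest peak of 211 tags had AAUAAA 14 nt before its end at an annotated transcript end that is 1259 nt short of the RefSeq end. SNHG3 overlaps RCC1 on the same strand, so tags in it cannot be assigned to 1 of these genes.

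SNHG1, the host of SNORD25 to SNORD31 and SNORD22, had more PABPC4 height on a snoRNA than at its 3′ end. The SNORD26 peak had 206 tags and covered 71 of the 75 nt of the snoRNA. The peak at the gene end had 94 tags, with AAUAAA 20 nt before its edge and the RefSeq end 10 nt further on. SNHG1 had 0 HNRNPC peaks.

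The other members with a peak at an annotated end were lower. SNHG33, which overlaps LINC00888 on its strand, had 192 and 41 tags, SNHG15 122, SNHG19 107, EPB41L4A-AS1 104, SNHG9 91, SNHG10 85, SNHG7 83, SNHG17 59 and SNHG12 40 tags. Of the tallest peaks of these 9 genes, SNHG33, SNHG7 and SNHG12 had no poly(A) signal in the last 40 nt. In SNHG4, which overlaps MATR3, and in SNHG20, which overlaps SEC14L1, the end peaks had 13 and 16 tags, below peaks of 107 and 99 tags elsewhere in the gene. SNHG26 had peaks of 35 and 27 tags at annotated ends and one of 47 tags elsewhere.

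In SNHG22, SNHG30 and SNHG31 no peak lay at an annotated end. All of their 6 peaks were intronic and followed by an A-rich stretch. Their heights were 4 tags in SNHG22, 103 and 83 in SNHG30, and 38, 20 and 16 in SNHG31.

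PABPC4 peaks overlapped a snoRNA in 3 cases in the host genes (5.77% of 52, 1.98 to 15.6%), against 0.0535% of the whole list, which held 34 such peaks. Protein-coding hosts had 21 of 3402 peaks on a snoRNA (0.617%, 0.404 to 0.942%), and other lncRNA genes 4 of 4071. The part of snoRNA density in this difference was not tested. The 3 peaks in the lncRNA hosts were those on SNORD50A, SNORD26 and SNORA50C. The peak on SNORD50A was the tallest of the 34, whose median was 57 tags and whose next tallest had 795. Of the 34 peaks, 12 began within 3 nt of the first base of the annotated snoRNA.

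Turning to HNRNPC, the host genes held 805 tags of summed peak height, of 147196 over the list, and the 32 peaks had a median height of 19 tags against 11 and a median width of 177 nt against 101. Widths ran from 71 to 482 nt. SNHG3 had the most, with 8 peaks of 54, 51, 44, 28, 25, 24, 23 and 19 tags, and all 8 also lay in RCC1, which the list named alone for 5 of them. SNHG17, the host of the SNORA71 family, had 6 peaks between 17 and 29 tags. The SNORA71 copies resemble each other, and how tags that match several copies were placed was not given in the sources used here.

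ZFAS1 had the tallest HNRNPC peak of the host genes, with 115 tags at chr20:49286510-49286846. It lay 5738 nt downstream of SNORD12, in an intron of 14438 nt with no snoRNA. The other ZFAS1 peaks had 23, 22 and 16 tags. GAS5 had 31, 17 and 17 tags, SNHG29 19, 13 and 10, SNHG7 12 and 11, and SNHG4 11 and 10. SNHG26, SNHG12, SNHG6 and SNHG8 had 1 peak each, of 39, 19, 11 and 10 tags. The authors' p-value was above 0.001 for 8 of the 32 peaks and above 0.05 for 3, of which SNHG17 had 2 and SNHG29 had 1.

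**Figure D3:**
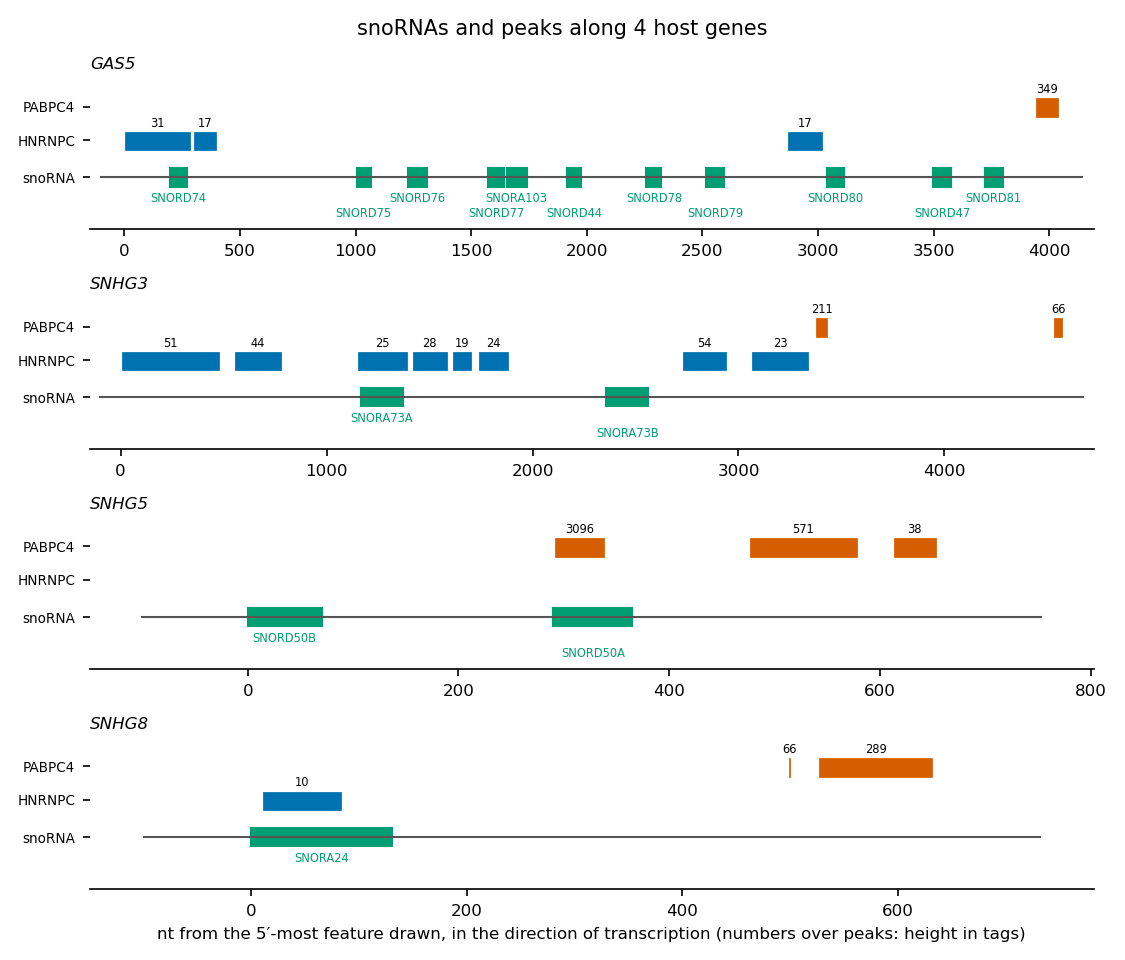
Annotated snoRNAs (green), HNRNPC peaks (blue) and PABPC4 peaks (orange) along GAS5, SNHG3, SNHG5 and SNHG8, in nt from the feature drawn farthest 5′, in the direction of transcription. Numbers are peak heights in tags. In GAS5, HNRNPC peaks lie at the first and at a later snoRNA and the PABPC4 peak of 349 tags after the last one. In SNHG5 the PABPC4 peak of 3096 tags lies on SNORD50A and that of 571 tags beyond it.

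HNRNPC peaks lay next to snoRNAs more often in the host genes than over the list. Within 100 nt of a snoRNA were 8 of 32 peaks (25%, 13.3 to 42.1%), in 5 genes, against 0.285% of the whole list. In protein-coding hosts the count was 17 of 623 peaks (2.73%, 1.71 to 4.33%), and in other lncRNA genes 1 of 733. Put the other way, the host genes held 0.351% of the HNRNPC list but 30.8% of its 26 peaks next to a snoRNA. Peaks that overlapped a snoRNA numbered 4 of 32 (12.5%, 4.97 to 28.1%), against 0.198% of the whole list. The genes themselves differ in how much room snoRNAs take. In the 11 host genes with an HNRNPC peak, 7.16% of the 147 kb spanned lay within 100 nt of a snoRNA, compared with 0.243% of the span of protein-coding hosts with such a peak. The part of snoRNA density and of peak width in the difference was not tested.

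All 3 GAS5 peaks were next to a snoRNA. That of 31 tags held SNORD74, starting 198 nt before it and ending 16 nt after it, as printed above. The next, of 17 tags at chr1:173867545-173867647, lay 27 nt downstream of SNORD74 in the same intron of 916 nt, and GUGUCA stood at its end. The remaining one, also of 17 tags, at chr1:173864923-173865079, lay 20 nt upstream of SNORD80. The other 9 snoRNAs of GAS5 had no HNRNPC peak within 100 nt.

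In SNHG3, the peak of 25 tags held SNORA73A and one of 28 tags, at chr1:28507613-28507787, lay 42 nt downstream of it. Both belong to a row of 6 peaks in the intron of 2043 nt that carries SNORA73A. The other snoRNA of the gene, SNORA73B, had its nearest peak 164 nt downstream, and that peak was the tallest of SNHG3 with 54 tags. A SNHG3 peak of 23 tags ended 32 nt before the start of the PABPC4 peak of 211 tags.

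The SNHG8 peak of 10 tags covered 74 of the 131 nt of SNORA24. The SNHG29 peak of 13 tags held all 71 nt of SNORD49A and ended 49 nt before the 3′ splice site of the intron that also carries SNORD49B. The SNHG12 peak of 19 tags, at chr1:28580182-28580288, lay 93 nt downstream of SNORA44. Among the 8 peaks, 4 were next to box C/D and 4 next to box H/ACA snoRNAs, 4 overlapped the snoRNA, 3 lay downstream and 1 lay upstream. Of the 35 snoRNAs in host genes with an HNRNPC peak, 6 had such a peak within 100 nt. The same 6 were out of 69 snoRNAs in host genes other than SNHG14, and out of 153 in all host genes.

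**Figure D4:**
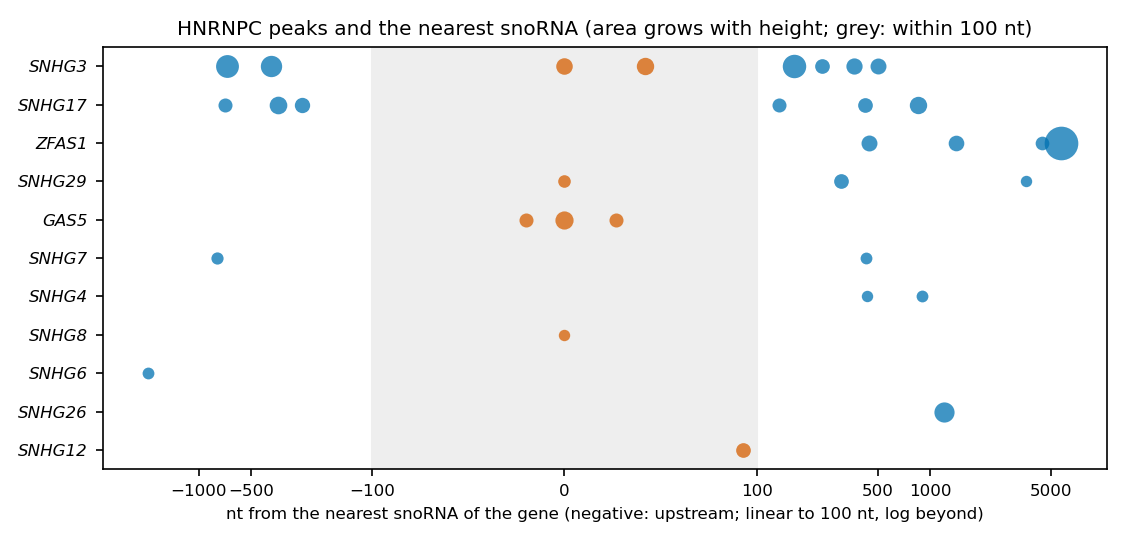
Distance in nt from each of the 32 HNRNPC peaks to the nearest snoRNA of its gene, with overlap at 0 and upstream as negative, on an axis that is linear to 100 nt and logarithmic beyond. Each circle is 1 peak, with an area that grows with its height, and the 8 in orange lie within 100 nt. The tallest, ZFAS1 with 115 tags, is the farthest downstream at 5738 nt.

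Most HNRNPC peaks of the host genes were further from a snoRNA. The median distance to the nearest snoRNA of the gene was 402 nt, with 21 peaks within 500 nt and 6 over 1000 nt away. By the canonical transcript, 29 of the 32 peaks were centred in introns (90.6%, 75.8 to 96.8%), against 92.7% of the whole list. By the rule that a base in an exon of any annotated transcript is exonic, only 8 of 32 were intronic (25%, 13.3 to 42.1%), against 85.5%, since exons of other annotated transcripts cover the rest. In the 11 host genes with an HNRNPC peak, the canonical introns that carry a snoRNA held 21 peaks in 63.3 kb (0.332 per kb, in 11 of 32 introns). Introns without one held 8 peaks in 56.2 kb (0.142 per kb, in 5 of 21 introns). SNHG3, whose tags may belong to RCC1, gave 6 of the 21. Over the introns of all host genes other than SNHG14, with or without a peak, the densities were 0.0610 per kb (21 peaks in 344 kb) and 0.0346 per kb (8 peaks in 231 kb).

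The sequence of the host-gene HNRNPC peaks was set against the list. UUUUU was found in 10 of 32 peaks (31.3%, 17.95 to 48.6%), against 13.3% of the whole list, although the host-gene peaks were wider. Among the peaks within 100 nt of a snoRNA, only the SNHG3 peak of 28 tags held UUUUU. In the 50 nt upstream of the peak, a window of equal length for all, it was found in 9 (28.1%, 15.6 to 45.4%), against 30.5%. GUGUCA, looked for on the transcribed strand within 20 nt on either side of the peak end, was found at 2 peaks (6.25%, 1.73 to 20.1%), in GAS5 and SNHG7, against 39.7% of the whole list. Protein-coding hosts had it at 35.2% (31.5 to 38.98%) of peaks and other lncRNA genes at 31.0% (27.7 to 34.4%). Peaks with this hexamer at their end are thus a large share of the list and a small one of the host genes, and the 7 other peaks next to a snoRNA lacked it. Why the hexamer is so common at peak ends was not tested. The shares given here for the whole HNRNPC list include the peaks that have it.

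HNRNPC and PABPC4 peaks overlapped at 1 place in the host genes. How often they overlapped over the whole list or in the other gene sets was not computed, so this count has no comparison. In SNHG29, the HNRNPC peak of 19 tags at chr17:16441603-16441849, with UUUUU inside it, reached into the PABPC4 peak of 1401 tags.

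Of 17 genes for the proteins of snoRNA particles and their assembly, 15 had a PABPC4 peak at an annotated 3′ end, against 45.3% of 20046 protein-coding genes. These were all 4 box C/D core genes, all 4 box H/ACA core genes and 7 of 9 assembly genes. Among the core genes, the tallest end peaks had 405 tags in FBL, the methyltransferase of box C/D particles, 291 in NOP10, 285 in NOP58, 240 in NOP56 and 211 in DKC1, the pseudouridine synthase. ZNHIT3 had no PABPC4 peak, and ZNHIT6 had none at an annotated end. HNRNPC peaks were found in 4 of the 17 genes, a share near the 20.1% of all protein-coding genes, with 4 in NOP56 (tallest 29 tags, 1 of them next to a snoRNA), and 1 each in NOP58, SNU13 and RUVBL1. NOP56 and NOP58 are themselves snoRNA hosts.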

How the data were processed

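MDA-MB-231 cells were used for HNRNPC irCLIP and PABPC4 PAPERCLIP, with 2 samples per protein. Per the study's methods for HNRNPC and the submitters' processing notes, reads were trimmed (cutadapt), collapsed by molecular identifier (UMI-tools) and aligned to hg38 with BWA 0.7.17, and peaks were called by valley seeking on pooled tags with the CLIP Tool Kit. Separate steps for PABPC4 were not given in the sources used here. The deposited signal of a peak is its height in tags, which the authors did not scale to depth. Library depth was not analysed here. The lists were joined to GENCODE 44, RefSeq genes and GRCh38 with Python 3.11.15 and pysam 0.24.0, and 0 peaks ran past a chromosome end. GENCODE snoRNAs and scaRNAs (972) were joined with RefSeq ones that overlapped none (316, strand from the host), overlapping entries were merged, and 131 of unclear strand were left out. Distances are differences of edge positions. The search functions were tested on simulated data. Named genes were those with an HNRNPC peak or an end peak, and HNRNPC peaks within 100 nt of a snoRNA and the tallest PABPC4 peaks of 10 genes were described singly. Genes named for other reasons were chosen after their values were seen. End sequences were printed for 8 of those 10 genes, and the other 2 are not reported here. Members, lists and windows were chosen with earlier results of these data known. The authors' p-values were used as a description and as a filter only.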

Additional observations from a re-analysis of the deposited data

How the results depend on the processing

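No paired analysis was possible because both samples of a protein went into a single list, and samples could not be left out for the same reason. SNHG14 has no peak, so the 8 alternatives that left it out could not change a value. Of the other 80, 72 were scored as unchanged. For shares of peaks this means a move by less than the counting interval, and for counts by less than 1.5 times. Shares of height have no counting interval given here. Those scored as unchanged ran from 79.98% to 88.7%, against 86.5% in the main setting. The share of PABPC4 host-gene peaks with an A-rich stretch was 19.2% within 20 nt and 21.2% when only 6 A in a row counted. HNRNPC host-gene peaks next to a snoRNA numbered 4 when overlap was required, and 5 with GENCODE snoRNAs alone, which lack those of GAS5. The intronic share of HNRNPC host-gene peaks was 90.6% by canonical transcripts. With canonical and RefSeq ends only, 32.7% of PABPC4 host-gene peaks and 27.5% of their height were at an end, or 38.98% of the height without peaks on a snoRNA. The alternatives with other transcripts, other ends or GENCODE snoRNAs alone, and those without SNHG5, without peaks on a snoRNA or without GUGUCA peaks, were chosen after seeing the data. With at most 52 peaks, intervals are wide, and a gene without a peak is not shown to lack binding.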
